A study of Saccharomyces cerevisiae with 2 samples.

Results

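Short divergent promoters are the stretches between a pair of genes that are transcribed away from each other, covered on these yeast tiling arrays by only 1 or 2 probes. They were taken as the nuclear probes that the array's own annotation calls divergent promoter, grouped by gene pair, where the pair had exactly 1 or 2 such probes counted before any filter on signal. The rule uses no measured ratio, although it was written with earlier results of these data known. The rule found 834 regions of 10750 on the array (7.76%), or 61.2% of the 1362 divergent pairs. Of these, 442 had 1 probe and 392 had 2, with 1226 probes in all, of which 1205 passed the filters on flagged and dim spots. Values were obtained for 828 regions. The other 6 (LCB4-YRM1, MED7-HRT1, NSG1-WSS1, RPE1-YJL118W, STT4-UBC12 and YLR225C-BUR2) kept no probe, and 14 regions with 2 probes were measured on 1 of them.

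The series measured histone H3 along the genome of Saccharomyces cerevisiae strain MDY510, in which H3 carries a Myc tag. There was 1 group of 2 arrays, replicates 1 and 2, both from cells given alpha factor, the mating pheromone that arrests yeast in G1, and no galactose. On each array the labels put the material precipitated with an anti-Myc antibody (IP) in Cy5 and the sonicated input, or whole cell extract (WCE), in Cy3, with no dye swap. The labels name no untagged strain, no other treatment and no other gene change in MDY510, and separate cultures are not stated for the replicates, so p-values measure only how these 2 arrays vary, and that variation may be technical.

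In budding yeast most promoters hold a stretch with few nucleosomes just upstream of the transcription start, flanked by well placed nucleosomes, the first of which lies at the start of the gene. At a divergent promoter both genes share the intergenic DNA, so 1 open stretch or 2 separate ones can serve both starts. Where the gap is short, a sonicated fragment and even a probe may reach from the open stretch into the flanking nucleosomes.

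Every value is a log2 ratio, Cy5 over Cy3, from which the median of all kept probes on the array was subtracted, so that 0 is the typical probe. Mitochondrial DNA, which carries no histones, served as the check of the labels and went against them: its 230 probes lay 4.77 and 4.91 above nuclear probes on the 2 arrays, a mean of 4.84 ± 0.10 (SD, n = 2 arrays), brighter in the channel labelled IP. Both channels are therefore named by label alone, a positive value means brighter in the channel labelled IP, and every direction below would turn if the channels had been exchanged. Over all 41775 probes the median spot intensity lay between 34318 and 36699, and the median local background between 64 and 87.5. Precision is limited by having 2 arrays.

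The regions matched their label. Of 1668 gene names, 1663 were found in the R64 gene table, and 830 of 831 pairs with both strands known had the left gene on the Crick and the right gene on the Watson strand. The exception was CWH36-YCL005W. In 794 of 829 pairs with both genes in the table (95.8%) the genes were direct neighbours. A tRNA gene lay between the genes in 17 pairs and another gene in 18. A low number of probes did not always mean a short gap. The distance between the nearest coding probes on both sides had a median of 670 bp, with 550 bp for pairs with 1 probe and 788.5 bp for pairs with 2, against 1272 bp for long divergent promoters, those with 3 or more probes. It was under 1000 bp in 728 of 823 regions (88.5%), but over 1500 bp in 33, and the longest was 28237 bp. Sequences are not shown, and sequence content was not analysed here.

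Short divergent promoters were on average brighter in the channel labelled IP than the array median. Their mean ratio was 0.24 on replicate 1 and 0.28 on replicate 2, a mean of 0.26 ± 0.03 (SD, n = 2 arrays), or 1.19-fold. The regions themselves spread far more than the arrays did. The SD between regions was 0.35, the SD of a region between arrays was 0.04, and the 25th and 75th percentiles of the regions were 0.05 and 0.42, around a median of 0.22. The 10th percentile was -0.13 and the 90th 0.72. Across the 828 regions, which share both arrays, the values of the arrays had a correlation of 0.989. The sign was the same on both arrays in 778 regions and opposite in 50, of which PBN1-LRE1, at 0.24 and -0.023, was the 1 past the test and was named after its values were seen.

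By limma's test over all 10682 measured regions, adjusted by Benjamini-Hochberg and read at 0.05, 584 short divergent promoters were higher than the array median (70.5%), 106 were lower (12.8%) and 138 were not called. Over all regions of the array the same test called 48% higher and 35.5% lower. A region passed with a mean as small as 0.067 in size, because the test sets each value against a common spread of 0.065 between the arrays. Calls depended on the processing. When the scanner's processed signals were replaced by normexp (a model of signal plus background fitted to the raw brightness), which also leaves out the scanner's detrending and dye normalisation, 14 regions were higher and 0 were lower, and with loess added 0 were called either way. Without adjustment normexp gave 57 and 4, and loess 0 and 0. The correlation of the arrays over these regions was 0.038 under normexp and 0.964 with loess added, where the SD between regions was 0.21 on replicate 1 and 0.041 on replicate 2.

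The number of probes went with the level, within the short divergent promoters and beyond their limit. Pairs with 2 probes had a mean ratio of 0.29 ± 0.03 over 391 regions, and pairs with 1 probe 0.23 ± 0.03 over 437 regions (SD, n = 2 arrays each). Of the 391 regions with 2 probes, 289 were called higher (73.9%) and 47 lower. Of the 437 regions with 1 probe, 295 were called higher (67.5%) and 59 lower. Over all regions of the array 48% were called higher and 35.5% lower. The test weighted each region by its probe number, so a mean of the same size passed more easily with 2 probes than with 1. The difference in level is therefore read from the means and not from these calls. Just outside the limit, the 246 regions with 3 probes had 0.35 ± 0.03. Regions with 4, 5 and 6 probes had 0.45, 0.58 and 0.62, whereas the 21 with 7 probes had 0.54 and the 10 with 8 had 0.62, with a median of 0.40. The difference between regions of 2 probes and of 1 was 0.059 and 0.062 on the 2 arrays, with a mean of 0.061, and was positive on 11 of 16 chromosomes. Split by gap into 4 groups of nearly equal number, pairs with 2 probes had, from narrow to wide, 0.24, 0.25, 0.27 and 0.39, the last with gaps from 927 bp. Pairs with 1 probe had 0.19, 0.21, 0.28 and 0.23.

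Short divergent promoters stood between the long divergent and the short tandem promoters. Tandem promoters lie between genes that run the same way, and short ones likewise have 1 or 2 probes. The mean ratio was 0.26 ± 0.03 in the short divergent and 0.45 ± 0.03 in 528 long divergent promoters (SD, n = 2 arrays each), a difference of -0.19 on each array. The lowest chromosome was 11, at -0.43, and the difference was positive on 1 of 16 chromosomes, chromosome 3, at 0.078. Against 1839 short tandem promoters, at 0.18 ± 0.03, the difference was 0.075 and 0.078 on the 2 arrays, with a mean of 0.076. It was positive on 15 of 16 chromosomes, with 0.17 on chromosome 3 at the top and -0.020 on chromosome 11 as the exception. At equal probe number the difference between divergent and tandem promoters was 0.066 for 1 probe, positive on 11 of 16 chromosomes, and 0.081 for 2 probes, positive on 13. In a two-sided exact sign-flip test each of these differences had p = 0.5, the smallest that 2 arrays allow, so the design could not reach the threshold. Coding regions had a mean of 0.017 ± 0.021 over 5465.

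**Figure D1:**
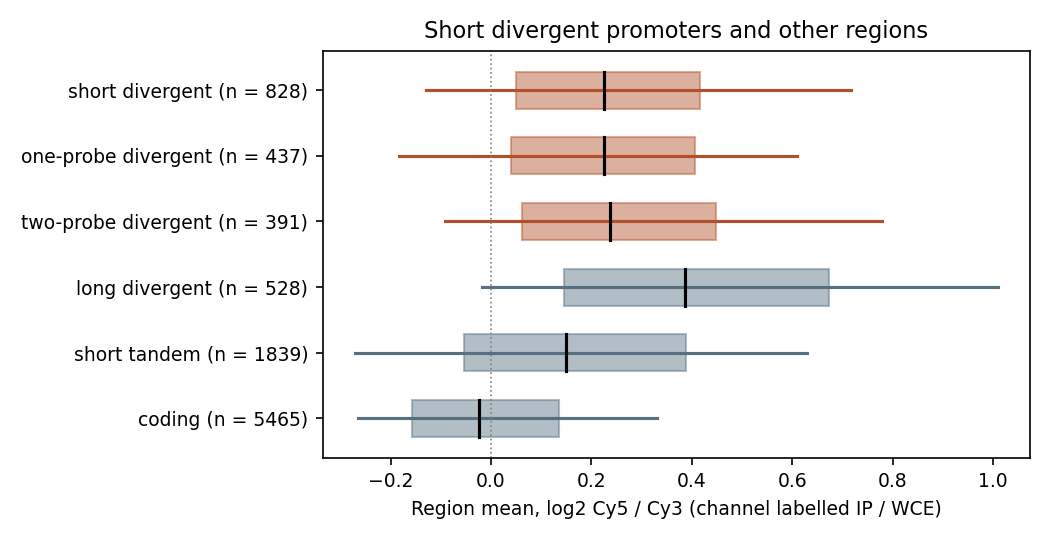
Region means of log2 Cy5 over Cy3, averaged over both arrays, for short divergent promoters, all and by probe number, and for long divergent promoters, short tandem promoters and coding regions. Boxes run from the 25th to the 75th percentile of the regions, the black line is the median and thin lines run from the 10th to the 90th percentile; the short divergent median of 0.22 lies below the long divergent and above the short tandem one.

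The mean was above 0 on each of the 16 chromosomes. It was highest on chromosome 5, at 0.38 over 33 regions, and lowest on chromosome 11, at 0.14 over 40, with an SD between regions of 0.38 and 0.25 there. Both differences from other promoters were lowest on chromosome 11 too, and each contains this same low mean.

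The highest short divergent promoter was PET56-HIS3, with 1.91 on replicate 1 and 1.99 on replicate 2. HIS3 encodes an enzyme of histidine synthesis, and PET56, now MRM1, encodes a methyltransferase of mitochondrial ribosomal RNA. Its promoter has long been a model for nucleosome-poor DNA. Its 1 probe lies between the genes on chromosome 15 at 721714 to 721771, by the array's coordinates, for which the sources used here give no genome build. Its processed Cy5 signal was 2517 and 2428 and its Cy3 signal 659 and 612. The probe is shorter than the full 60 nt, and such probes ran higher in short divergent promoters, at a mean of 0.39 against 0.22 at 60 nt.

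VMA6-RPL6B followed, with 1.65 and 1.71, and was the highest region with 2 probes. RPL6B encodes a protein of the large ribosomal subunit and VMA6 a subunit of the vacuolar proton pump. SDS23-OLE1 had 1.47 and 1.51, where OLE1 encodes the fatty acid desaturase of yeast. GYP8-STE2 had 1.35 and 1.42, where STE2 encodes the alpha factor receptor. Both arrays were from cells given alpha factor, so an effect of this treatment on the ratio was not tested. NTH1-YRB1, next to the gene of neutral trehalase, had 1.25 and 1.20 on a probe flagged as saturated, which may distort its ratio. YER188C-A-YER189W, near a chromosome end, had 1.24 and 1.22, with no coding probe on both sides to set it against. The other 4 of the 10 highest held ribosomal protein genes: RPS16B-RPL13A at 1.41, YBL028C-RPL19B at 1.39, RPS15-RPP2A at 1.37 and RPS27B-ECM12 at 1.22.

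In all, 28 short divergent promoters had a mean over 1. Of these 17 had 2 probes, 19 had a probe shorter than the full 60 nt, 6 had a saturated probe and 9 were next to a ribosomal protein gene. Of all 828 measured short divergent promoters, 391 had 2 probes, 101 (12.2%) had a saturated probe and 27 were on the ribosomal protein list. Of their kept probes 25.3% were under 60 nt, which is a share of probes and not of regions.

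The lowest was TAD3-EST2, with -0.86 and -0.79 and a limma adjusted p of 4.37e-70. That p rests on the common spread of 0.065 between the arrays and not on the region's own spread. EST2 encodes the catalytic subunit of telomerase, and TAD3 part of a tRNA deaminase. ARP6-SMC4 had -0.75 and -0.74; SMC4 encodes a condensin subunit, and ARP6 a subunit of the complex that puts the histone variant H2A.Z into chromatin. DUR1,2-ERV15, next to the urea amidolyase gene, had -0.70 and -0.71. RRP3-SSF1, a pair in which both genes act in ribosome assembly, had -0.69 and -0.61. TAF5-KTR4, next to the gene of a TFIID subunit, had -0.59 and -0.53.

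The remaining 5 of the 10 lowest were NMD4-YLR363W-A, RIA1-YNL162W-A, PEX3-YDR330W, DYN2-SNX41 and YOR164C-SEY1. Their means ran from -0.79 to -0.56. In NMD4-YLR363W-A the arrays differed most among these 10, at -0.94 and -0.64, and its processed signal was only 14.6 in Cy5 and 27.6 in Cy3 on replicate 1. All 10 lowest had 1 probe. Under normexp the mean of each of these 10 was above 0, and none passed the test, whereas with loess added all 10 were below 0. Of the 14 regions below -0.5, 12 had 1 probe and 2 had a probe under 60 nt. Among all 828 measured regions 437 had 1 probe.

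Both ends were dimmer than most short divergent promoters in the channel labelled WCE. The processed Cy3 signal of the 10 lowest regions ran from 27.6 to 1026 on replicate 1 and that of the 10 highest from 318 to 1051, against a median of 1375 over all measured short divergent promoters. In Cy5 the 10 lowest ran from 14.6 to 679 and the 10 highest from 765 to 2543, against a median of 1675; a low or high ratio by itself sets part of this. Split into 4 equal groups by the mean brightness of both channels, the dimmest group had 49 of 207 called lower and the brightest 3 of 207. From dim to bright the mean ratio was 0.21, 0.27, 0.28 and 0.26. The part of brightness in these calls was not tested.

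**Figure D2:**
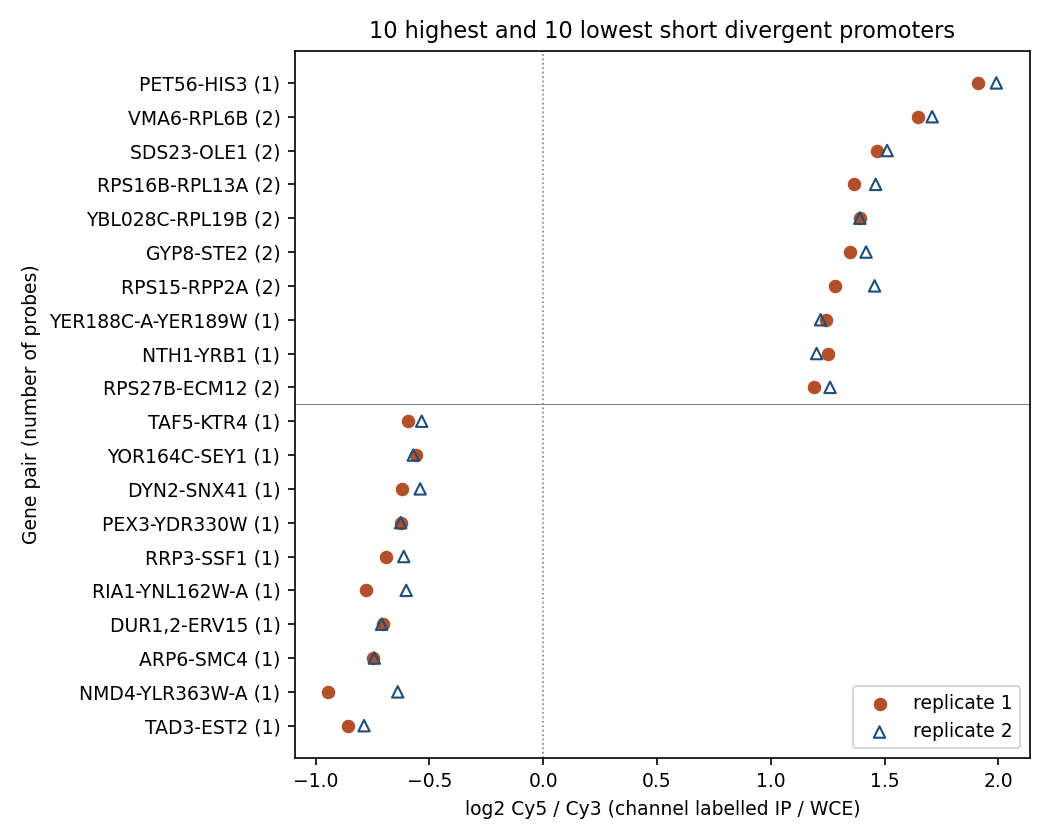
Log2 Cy5 over Cy3 of the 10 highest and 10 lowest short divergent promoters past the test, with replicate 1 as filled circles and replicate 2 as open triangles and the number of probes in brackets. The highest, PET56-HIS3, reached 1.99 and the lowest of the single values was -0.94; in most regions the symbols nearly coincide.

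A comparison within each locus, which does not depend on the centring, set the promoter against the nearest coding probe on each side. Over 823 regions with both, the promoter mean exceeded the flanking coding mean, 0.10 ± 0.02, by 0.148 and 0.155, a mean difference of 0.15 ± 0.01 (SD, n = 2 arrays). By limma's test 486 short divergent promoters were above their flanks (59.1%) and 197 below (23.9%), where 52.7% and 30.8% of all 5121 intergenic regions were. In 378 the promoter was above both flanking probes, in 144 below both and in 301 between them. Under normexp, and with loess added, 0 passed in either direction; unadjusted, normexp gave 30 above and 5 below, and loess 83 and 6. Long divergent promoters exceeded their flanks by 0.31 and short tandem promoters by 0.075.

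A high ratio and a ratio above the neighbourhood were not the same thing. Of the regions called higher than the array median, 433 were also above their flanks and 65 were below them. Of those called lower, 88 were also below their flanks and 10 above. The same overlap over all intergenic regions is not given here, so nothing particular to short divergent promoters is read from these counts. COR1-YBL044W, next to a gene of respiratory complex III, is 1 of the 65: it had 0.77 and 0.84 but lay 0.43 under its flanks. Promoter and flank ratios had a correlation of 0.39 across the 823 regions, and the 2 flanks of a promoter one of 0.13; the regions share both arrays.

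PET56-HIS3 and VMA6-RPL6B also led this comparison, at 1.64 ± 0.10 and 1.40 ± 0.05 above their flanks (SD, n = 2 arrays each). YCL056C-KAR4, at 1.15 ± 0.04, came next; KAR4 encodes a transcription factor of the mating response. YMR171C-HOT1, next to the gene of a factor of the osmotic stress response, had 1.14 ± 0.07, and RPS16B-RPL13A 1.14 ± 0.02. At the other end, TAF5-KTR4 lay 0.85 below its flanks, TIS11-YLR137W and DUR1,2-ERV15 each 0.81, TAD3-EST2 0.80 and RRP3-SSF1 0.77. TIS11 encodes a protein that destabilises messenger RNAs in iron shortage.

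The mean ratio declined with each probe into the genes, over fewer genes at each step. Averaged over both genes, it was 0.10 at the first coding probe from a short divergent promoter, -0.002 at the second, -0.075 at the third, -0.11 at the fourth and -0.15 at the fifth. Behind long divergent promoters the first coding probe had 0.14 and the fifth -0.12, and behind short tandem promoters 0.086 and -0.14. Beside the promoter mean of 0.26, each step into the genes was therefore lower than the last.

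Left and right of a short divergent promoter were not alike. The first coding probe of the left gene, on the Crick strand, had 0.18 ± 0.02, and that of the right gene, on the Watson strand, 0.024 ± 0.024 over 774 pairs with a kept probe of each as the nearest one. Left minus right was 0.16 on each array, left was higher in 519 of 774 pairs, and the mean difference was positive on 16 of 16 chromosomes. The same held inside the promoter. In pairs with 2 probes the left probe had 0.34 ± 0.03 and the right probe 0.24 ± 0.03, a difference of 0.097 on each array, positive on 14 of 16 chromosomes. Of 377 such pairs the left probe was higher in 225.

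This difference was not particular to divergent promoters. Over the whole array, coding regions of Crick genes had 0.071 and those of Watson genes -0.038, and short tandem promoters had 0.24 before Crick genes and 0.12 before Watson genes. Downstream regions went the other way, with -0.051 for Crick genes and -0.0096 for Watson genes. The cause of these differences was not tested.

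**Figure D3:**
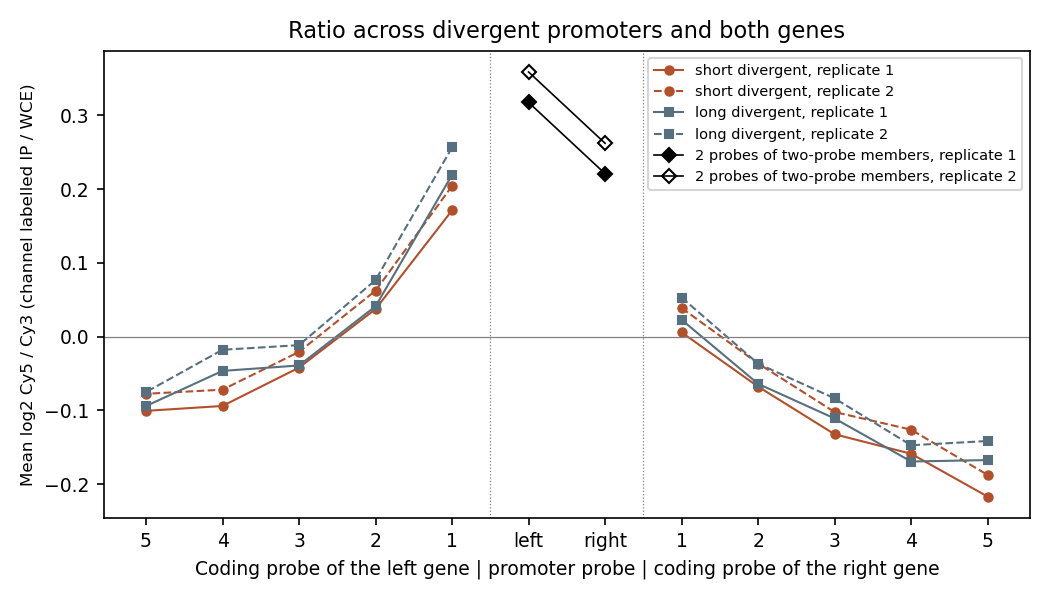
Mean log2 Cy5 over Cy3 of the first 5 coding probes of the left and right genes around short divergent and long divergent promoters, by array, with the 2 promoter probes of pairs with 2 probes between them. The mean ratio falls away from the promoter on both sides, except from the fourth to the fifth right probe of long divergent promoters (-0.158 and -0.155). Fewer genes reach the later probes. Around short divergent promoters the left side is higher than the right, 0.18 against 0.024 at the first probe in pairs with both.

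The 2 probes of a promoter differed about as often as neighbouring probes over the whole array. Right minus left was past limma's test in 293 of 377 pairs (77.7%), and 79.7% of all 40644 neighbouring probes differed. The right probe was higher in 111 pairs and the left in 182, where 40.1% and 39.7% of all neighbouring probes were. The median size of the difference was 0.29 within short divergent promoters and 0.25 between all neighbouring probes. Probes of a pair had a correlation of 0.40 over the 377 pairs, which share both arrays, and in 119 pairs 1 probe was above and 1 below the array median. The probes of such a pair together spanned 306 bp at the median, and between 204 and 640 bp.

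ADP1-PGK1 had the largest difference. Its right probe, on the side of PGK1, which encodes a glycolytic enzyme, had 1.68 and 1.79, and its left probe -0.075 on both arrays, a difference of 1.81 with a limma adjusted p of 5.32e-08. The right probe is 55 nt long and the left 60 nt, so on probes of 60 nt alone the region was at -0.036 and not called. In EMI2-GRH1 the right probe, next to a gene of a Golgi protein, had 0.85 and 0.94 and the left -0.75 and -0.72. The mean of this region was 0.080. In the other 3 of the 5 largest the left probe was higher. YNL018C-PUB1 had -0.29 and -0.28 at the right probe, next to the gene of an RNA-binding protein, and 1.39 and 1.38 at the left. YBL071C-B-KTI11 had 0.26 on both arrays at the right and 1.48 and 1.62 at the left. YKL222C-MCH2 had -0.95 and -0.93 at the right and 0.19 and 0.32 at the left. Under normexp, and with loess added, 0 of the 377 differences passed.

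**Figure D4:**
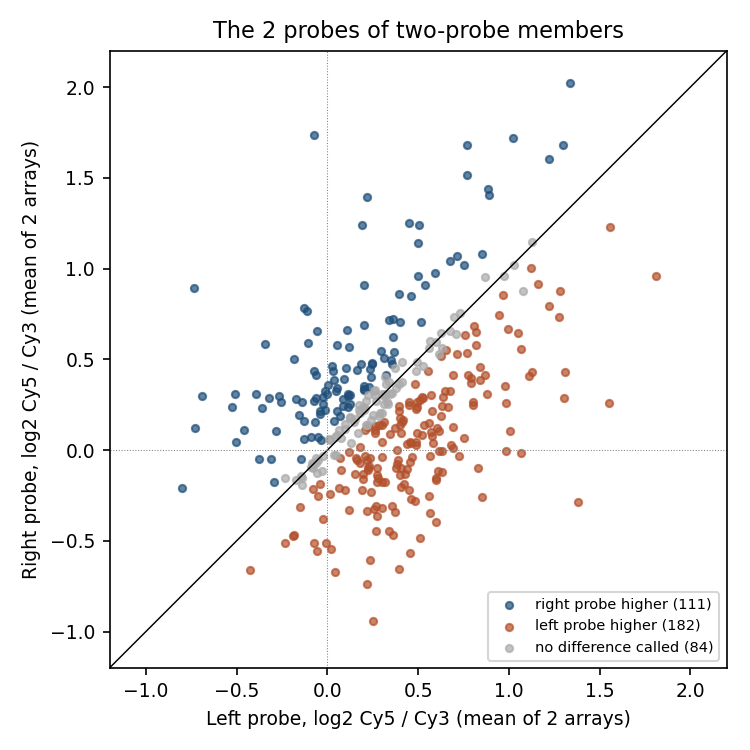
Right probe (vertical axis) and left probe (horizontal axis) of the 377 short divergent promoters measured on 2 probes, as log2 Cy5 over Cy3 averaged over both arrays, with the diagonal of equal values. The right probe is higher past the test in 111 pairs, the left in 182, and points far off the diagonal include ADP1-PGK1, 1.81 higher at the right probe.

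Gene lists show which pairs lay where. A promoter counts for a list when either of its genes is on it, so each value also belongs to the partner gene, and no list was tested as a set. Of the 85 regions named by rule, 26 changed sign under normexp, most of them low ones. The median over all measured short divergent promoters was 0.22, with 584 of 828 called higher and 106 lower, beside 48% and 35.5% of all regions.

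Ribosomal protein genes had the highest median of the lists, 0.86, and 27 of 27 promoters were called higher and 0 lower. Under normexp all 27 were above 0, with a median of 0.38, and 5 were called, against 14 of all 828. Being above 0 sets them little apart there, because the 10 lowest short divergent promoters were above 0 too. With loess added the median of the 27 was 0.24 and 0 were called. The lowest were RPS17B-ADA2, with 0.26 and 0.32, and RPL22B-YFL034W, with 0.32 and 0.38, which was 0.025 and not called without its saturated probe. Both pairs with 2 genes of the list were among the 10 highest of all: RPS16B-RPL13A had 1.36 and 1.46, and RPS15-RPP2A 1.28 and 1.46. Of the 27, 25 were above their flanks and 1 was below, where 52.7% and 30.8% of all intergenic regions were. RLP7-DOM34, at 0.41, is counted here, although RLP7 encodes an assembly factor that resembles a ribosomal protein.

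Other genes of protein synthesis were closer to the median of 0.22. Mitochondrial ribosomal protein genes had a median of 0.30, with 25 of 32 higher and 2 lower. YML6-RPS17A, shared with the ribosomal protein list, was at 1.07 and RSM19-DBP6 at 0.72, whereas MRPL50-SNF12 was at -0.31 and NIP100-MRPL40 at -0.21. For tRNA synthetase genes 14 of 15 were higher and 1 was lower, with a median of 0.25. EHD3-KRS1 had 0.79 and DED81-YHR020W, where both genes are on the list, 0.67. RAI1-YGL245W had -0.28 and YPL105C-MSD1 0.12.

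Genes that build ribosomes did not share the level of ribosomal protein genes. Ribosome biogenesis had 34 of 53 higher, 9 lower and a median of 0.18. RSM19-DBP6, at 0.72, and RRP46-TPC1, at 0.57, were highest, where DBP6 encodes a helicase and RRP46 an exosome subunit. RRP3-SSF1, at -0.65, and RPC25-LTV1, at -0.54, were lowest. NSA2-LCP5, the other pair with both genes on the list, had 0.13 on each array, with a limma adjusted p of 0.0067. RNA polymerase I, II and III subunits had 10 of 16 higher and 4 lower, with a median of 0.19, from SAS10-RPC53 at -0.52 to RPC34-YNR004W at 0.72 and CPR1-RPA14 at 0.67.

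Genes of the pheromone response, the pathway that alpha factor acts on, had 7 of 7 higher and a median of 0.82. Under normexp 6 of 7 means were above 0 and 1 was called, and with loess added 0 were called. The list ran from VTI1-CIK1, at 0.05 and 0.08, to GYP8-STE2. DIG1-CAM1, where DIG1 encodes an inhibitor of the factor Ste12, had 0.95 and 0.98, PRM2-CST6 0.24 and 0.26, and YCL056C-KAR4 0.77 and 0.86. Other cell cycle genes spread widely. Cyclins and cell cycle regulators had 6 of 9 higher and 1 lower, with CLB5-THI22, by an S-phase cyclin gene, at 0.96 and MMF1-PCL7 at 0.78. BOS1-SIC1, by the gene of the inhibitor of that cyclin's kinase, was at -0.10, but at 0.16 and called higher on its probe of 60 nt alone, and YOR081C-WHI5 was at -0.055 and not called. DNA replication had 19 of 26 higher and 4 lower, from SMA2-ORC1 at -0.30 and YIF1-POL2 at -0.19 to ELO1-CDC6 at 0.63 and IST2-RFC5 at 1.08. DNA repair had the lowest median of all lists, 0.13, with 11 of 21 higher and 5 lower. On probes of 60 nt alone its median was 0.18, and pre-mRNA splicing was lowest, at 0.15. YML011C-SPT5 had -0.38, PIF1-OGG1 -0.23, MCX1-SLX1 0.42 and RAD14-ERG2 0.46.

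Glycolysis and fermentation had 4 of 4 higher, from MNT2-ADH4 at 0.17 and ISF1-ADH3 at 0.42 to YJL052C-A-TDH1 at 0.74 and ADP1-PGK1 at 0.83. All 4 were above their flanks, as were 52.7% of all intergenic regions. Amino acid biosynthesis had 13 of 20 higher and 2 lower. After PET56-HIS3 its highest was RTN1-LYS4, at 1.15, and its lowest were YER085C-ILV1, at -0.23, and HIS6-YIL019W, at -0.10. Oxidative phosphorylation had 8 of 9 higher and 0 lower. COR1-YBL044W had 0.81 and COX9-IDP1 0.67, CYC7-UTR4 had 0.10, and ATP12-PFD1, at 0.067, was not called. Of these 9, 4 were above their flanks and 4 below, where 52.7% and 30.8% of all intergenic regions were.

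GAL10-GAL1, the divergent pair of galactose catabolism in cells given no galactose, had 0.36 and 0.37 and lay 0.45 above its flanks. The galactose list held 1 other short divergent promoter, MTH1-RNH202, at -0.006 and 0.10 and not called. Of the 4 divergent pairs of core histone genes 1 was short: HHT2-HHF2, which encodes H3 and H4, had 0.69 and 0.70. The histone list held also HHO1-NAN1, by the gene of the linker histone, at -0.10 and -0.08.

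For the remaining lists, proteasome genes had 14 of 19 higher and 4 lower with a median of 0.27, from YTH1-RPN7 at -0.20 and RPT6-YGL047W at -0.17 to OST1-PRE3 at 0.74 and RPL11A-PRE2 at 0.88. The last of these is the promoter of a ribosomal protein gene as well. Pre-mRNA splicing had 25 of 37 higher and 4 lower with a median of 0.20. PRP24-YMR269W had -0.37 and LSM6-RGA2 -0.31, against 0.88 in SAD1-YFR006W and 0.89 in PRM6-PRP39, whose other gene is on the pheromone list. Vacuolar protein sorting had 11 of 15 higher and 2 lower with a median of 0.20. MEI5-VPS30 had -0.30 and VAM10-VPS5 -0.20, MRP17-DID4 0.65 and YLR415C-VPS36 1.04.

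**Figure D5:**
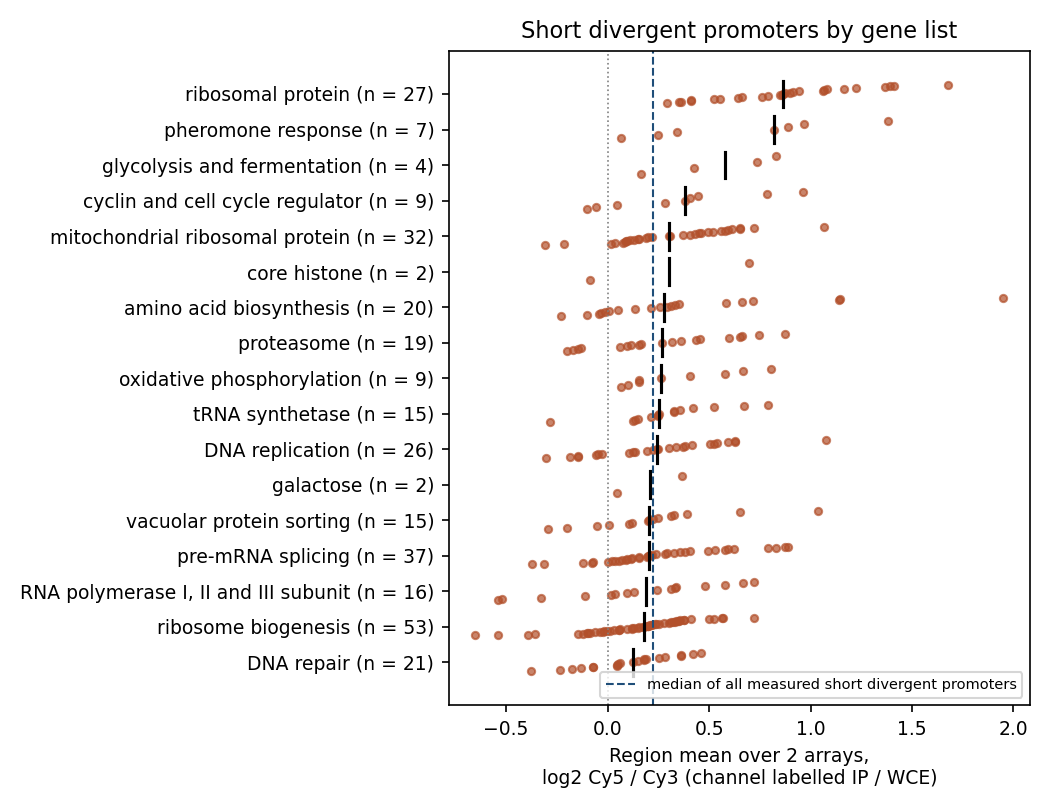
Region means over both arrays of the measured short divergent promoters on each gene list, with each point 1 promoter, the black line the list's median and the dashed line the median of all short divergent promoters, 0.22. All 27 ribosomal protein promoters lie to the right of 0, with a median of 0.86, and the lists overlap widely.

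Some features that the choice of regions did not use went with the ratio. Short divergent promoters with a tRNA gene between the pair had a mean of 0.46 ± 0.05, and those without had 0.25 ± 0.03 over 811 regions (SD, n = 2 arrays each). With a tRNA gene 14 of 17 were called higher and 1 lower, and without one 570 of 811 and 105. Over all regions 48% were called higher and 35.5% lower. The part of the tRNA gene in these ratios was not tested. tRNA genes are transcribed by RNA polymerase III and are known as nucleosome-poor.

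Probe length went with the ratio too, in promoters and genes alike. Probes under 60 nt in short divergent promoters had a mean of 0.39 over 305 probes, and those of 60 nt 0.22 over 900. The 43 probes of 56 nt or less had 0.53. Long divergent promoters had 0.69 under 60 nt and 0.40 at 60 nt, short tandem promoters 0.34 and 0.15, and coding regions 0.042 and -0.12. On probes of 60 nt alone, the difference between short divergent and long divergent promoters was -0.16, that between short divergent and short tandem promoters 0.072, and that between short divergent promoters and their flanks 0.21. The part of probe length in the ratios of single promoters was not tested.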

How the data were processed

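Per the file headers, the deposited spot intensity values came from arrays of design 014810 read with Feature Extraction 9.1.3.1, which subtracted background, detrended the signals and normalised the dyes linearly. Log2 ratios in the authors' value table equal log2 processed Cy5 over Cy3 within 5.00e-06 at each probe, with medians of 0.03 and -0.00. Per the labels' protocols, up to 75 ng was amplified linearly and 3 µg of RNA labelled, which can favour some sequences.

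The median over kept probes was subtracted from the log2 ratio of processed signals, with no loess. Probes were kept where no flag for a non-uniform spot or population outlier was set in either channel and Cy3 was well above background on both (40890 of 41775); 3444 control spots were left out. A region is the mean of its kept probes. limma 3.58.1 (lmFit and eBayes, R 4.3.3) was fitted with 1 residual degree of freedom to 10682 region means weighted by probe number, to 5121 intergenic regions minus the mean of the nearest coding probe on each side, and to 40644 differences between neighbouring probes, with Benjamini-Hochberg adjustment at 0.05. The common SD was 0.065, 0.041 and 0.052, with prior degrees of freedom infinite, 6.9 and 6.9. At an infinite value the own spread of a region between arrays does not enter its test. Class differences were given per array and chromosome, with an exact sign-flip test over the arrays.

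The members and gene lists were chosen with earlier results of these data known. Named are the 10 highest and 10 lowest regions, the 5 highest and 5 lowest against their flanks, up to 2 at each end of every list, pairs with both genes on a list, histone and GAL1-GAL10 pairs, and the 5 largest differences between probes: 85 regions. The alternatives were normexp (offset 50) on the raw signals in place of the processed ones, loess, leaving out saturated or shorter probes, no filter, other centring, the deposited table, no weights and each replicate alone. A planned description of sequence content was not run. No batch test was possible on 1 slide.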

Additional observations from a re-analysis of the deposited data

How the results depend on the processing

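The mean of short divergent promoters and its differences from long divergent promoters, short tandem promoters and flanks kept their direction under every alternative run, as did the difference between regions of 2 probes and of 1 and both left minus right differences. The other class means and the differences at equal probe number were not rerun. Sizes and calls changed most under normexp, which replaces the processed signals and so changes background correction, detrending and dye normalisation together. In the order normexp and normexp with loess, the mean ratio of short divergent promoters was 0.12 and 0.10, the difference from long divergent promoters -0.090 and -0.046, that from short tandem promoters 0.026 and 0.029, that from flanking coding probes 0.095 and 0.053, that between regions of 2 probes and of 1 probe 0.036 and 0.0087, left minus right within the promoter 0.069 and 0.025, and left minus right at the first coding probe 0.062 and 0.064. With loess the mean was 0.18 on replicate 1 and 0.034 on replicate 2. Regions higher and lower than the array median numbered 14 and 0 under normexp and 0 and 0 with loess, and regions above their flanks, below them, or with differing probes numbered 0 under both. Centring on coding probes gave a mean of 0.30.

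Without saturated probes the difference from long divergent promoters was -0.19, that from flanks 0.17 and left minus right within the promoter 0.074. Without the filter, the difference from long divergent promoters was -0.19 and left minus right was 0.099 within the promoter and 0.16 at the first coding probe. On probes of 60 nt alone the difference from long divergent promoters was -0.16, that from short tandem promoters 0.072, that from flanks 0.21, and left minus right 0.12 within the promoter and 0.13 in the genes, and 163 of 203 pairs of probes differed. Chosen after seeing the data were 3 kinds of alternative. Members with a gap of at most 1500 bp gave -0.20 against long divergent and 0.071 against short tandem promoters; flanks from the pair's own genes gave 0.14; and the left minus right values were run under the settings of the other results. Values on 1 array alone ran from 0.24 to 0.28 for the mean, from -0.194 to -0.191 against long divergent promoters, from 0.075 to 0.078 against short tandem promoters, from 0.148 to 0.155 against flanks, from 0.059 to 0.062 between regions of 2 probes and of 1, from 0.0967 to 0.0967 for left minus right within the promoter and from 0.161 to 0.161 at the first coding probe.

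Of the 85 named regions, 26 changed sign under normexp, most of them low ones: TAD3-EST2 at 0.20, NMD4-YLR363W-A at 0.33, ARP6-SMC4 at 0.094, DUR1,2-ERV15 at 0.22, RIA1-YNL162W-A at 0.29, RRP3-SSF1 at 0.16, PEX3-YDR330W at 0.12, DYN2-SNX41 at 0.061, YOR164C-SEY1 at 0.097, TAF5-KTR4 at 0.045, TIS11-YLR137W at 0.30, RPC25-LTV1 at 0.039, SAS10-RPC53 at 0.078, YER085C-ILV1 at 0.25, HIS6-YIL019W at 0.027, RAI1-YGL245W at 0.18, LSM6-RGA2 at 0.15, PRP24-YMR269W at 0.087, RPT6-YGL047W at 0.023, YIF1-POL2 at 0.046, HHO1-NAN1 at 0.048, YOR081C-WHI5 at 0.12, YKL222C-MCH2 at 0.076, ATP12-PFD1 at -0.021, VTI1-CIK1 at -0.11 and YPL105C-MSD1 at -0.075. With loess HHO1-NAN1 was at 0.0095, YKL222C-MCH2 at 0.024 and YOR081C-WHI5 at 0.0060. On probes of 60 nt ADP1-PGK1 was at -0.036, measured on its left probe alone, and BOS1-SIC1 at 0.16. Without replicate 2 MTH1-RNH202 was at -0.0063. The causes were not tested. No paired analysis was possible because the series holds 1 group. With 2 arrays there was 1 residual degree of freedom. The region test set each region against a common SD of 0.065, scaled by probe number, and not against its own spread between arrays. Small differences therefore pass it.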
